A study of Mus musculus with 18 samples.

Results

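Collagen genes encode the chains of the most abundant proteins of the extracellular matrix. The members described here are the 44 genes whose symbol has the form of a collagen chain (Col, a type number, a and a chain number), of 54307 gene rows in the deposited expression table. They fall into 11 fibrillar collagens, 8 basement membrane collagens and 25 other collagens. The other collagens are 6 beaded filament chains of type VI, 9 fibril-associated chains, 3 short-chain network collagens, 4 transmembrane collagens and 3 remaining genes.

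A collagen chain carries stretches of repeated triplets that each start with glycine, written Gly-X-Y, and chains fold in groups around one another into a triple helix. Fibrillar collagens have one long uninterrupted stretch and pack into fibrils. Basement membrane collagens of type IV have a helix with many interruptions and assemble into sheets under epithelia, around vessels and at the glial boundary of the brain. In the brain, fibrillar collagens are known chiefly from meninges and vessel-associated fibroblasts, and type IV collagens from vessels and the pial surface.

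The samples were small extracellular vesicles (sEVs), which are membrane-bound particles released by cells, and the cultured cells that released them. Poly(A) RNA was sequenced from 6 groups of 3 libraries: sEVs of astrocytes, microglia and neurons, and the astrocytes, microglia and neurons themselves, all from primary cultures of mouse brain. The labels give no treatment, genotype, strain, age or sex. The series asks whether the mRNA packaged in sEVs differs by cell type. The labels do not say that the 3 replicates of a group came from separate cultures, so p-values measure the spread between these libraries, which may be technical.

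Values are normalized counts, which the authors obtained by dividing counts by a size factor per library. They summed to 40672561 to 54740814 in sEV libraries and 36947428 to 69276566 in cell libraries. The raw read depth is unknown. Genes at 10 or more numbered 7840 to 15951 in sEV libraries and 13494 to 18131 in cell libraries. Each culture had the highest share of its own type's markers: 9 astrocyte markers took 25057 to 26605 ppm (normalized counts in 1000000 of the library) of astrocyte cell libraries, 8 microglia markers 4175 to 4281 ppm of microglia cell libraries, and 10 neuron markers 5503 to 6346 ppm of neuron cell libraries. The cultures were mixed. The astrocyte markers also took 3134 to 3526 ppm of neuron cell libraries, and 10 oligodendrocyte lineage markers took 6118 to 12702 ppm of astrocyte cell libraries. Because these are bulk libraries, fewer cells of a type and less RNA per cell cannot be told apart.

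The 3 classes differ in the coding sequence of their helix, which is shown here for 1 fibrillar chain and 1 basement membrane chain. It is also shown for Col16a1 and Col27a1, which were chosen for their sEV values described below. In the GENCODE vM21 coding sequences, the longest unbroken Gly-X-Y run had a median of 338 triplets in the 11 fibrillar genes (range 216 to 344), 41 in the 8 basement membrane genes (30 to 66) and 52 in the 25 other genes (23 to 113). Each line below gives 27 codons with the glycine codons in capitals.
Col1a1: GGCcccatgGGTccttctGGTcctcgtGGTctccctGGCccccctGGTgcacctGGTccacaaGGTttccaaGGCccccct
Col4a1: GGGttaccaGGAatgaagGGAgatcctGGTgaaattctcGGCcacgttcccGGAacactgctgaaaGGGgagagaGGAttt
Col16a1: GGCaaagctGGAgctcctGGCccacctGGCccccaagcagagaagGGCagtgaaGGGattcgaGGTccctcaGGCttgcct
Col27a1: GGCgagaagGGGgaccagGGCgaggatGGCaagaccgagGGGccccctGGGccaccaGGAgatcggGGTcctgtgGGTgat
The Col1a1 stretch (chromosome 11, codons 168 to 194) has a glycine codon at the start of every triplet without a break. The Col4a1 stretch (chromosome 8, codons 151 to 177) has 10 codons between one run of at least 5 triplets and the next. The Col16a1 stretch (chromosome 4, codons 1150 to 1176) has an interruption of 3 codons, and the Col27a1 stretch (chromosome 4, codons 1312 to 1338) one of 1 codon. The longest run of Col27a1, at 217 triplets, and that of Col24a1, at 216, were the shortest of the fibrillar class.

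Collagen mRNA took a smaller share of sEV libraries than of cell libraries in all 3 cell types. The 44 genes together took 27.02 ± 8.02 ppm in astrocyte sEVs and 330.3 ± 22.8 ppm in astrocyte cells (SD, n = 3 each). They took 7.70 ± 6.05 ppm in microglia sEVs and 132 ± 97.0 ppm in microglia cells, and 51.0 ± 4.32 ppm in neuron sEVs and 276 ± 87.2 ppm in neuron cells. In each type the highest sEV library was below the lowest cell library: 33.6 ppm in astrocyte sEVs against 308 ppm in astrocyte cells, 13.4 ppm in microglia sEVs against 29.9 ppm in microglia cells, and 54.7 ppm in neuron sEVs against 183 ppm in neuron cells. The share in cells over that in sEVs was 12.2 in astrocytes, 17.2 in microglia and 5.42 in neurons. The microglia ratio moved with single libraries: it was 27.4 without replicate 1 of microglia sEVs and 11.3 without replicate 3 of microglia cells. The mean of microglia cells was 183.5 ppm without replicate 1.

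**Figure D1:**
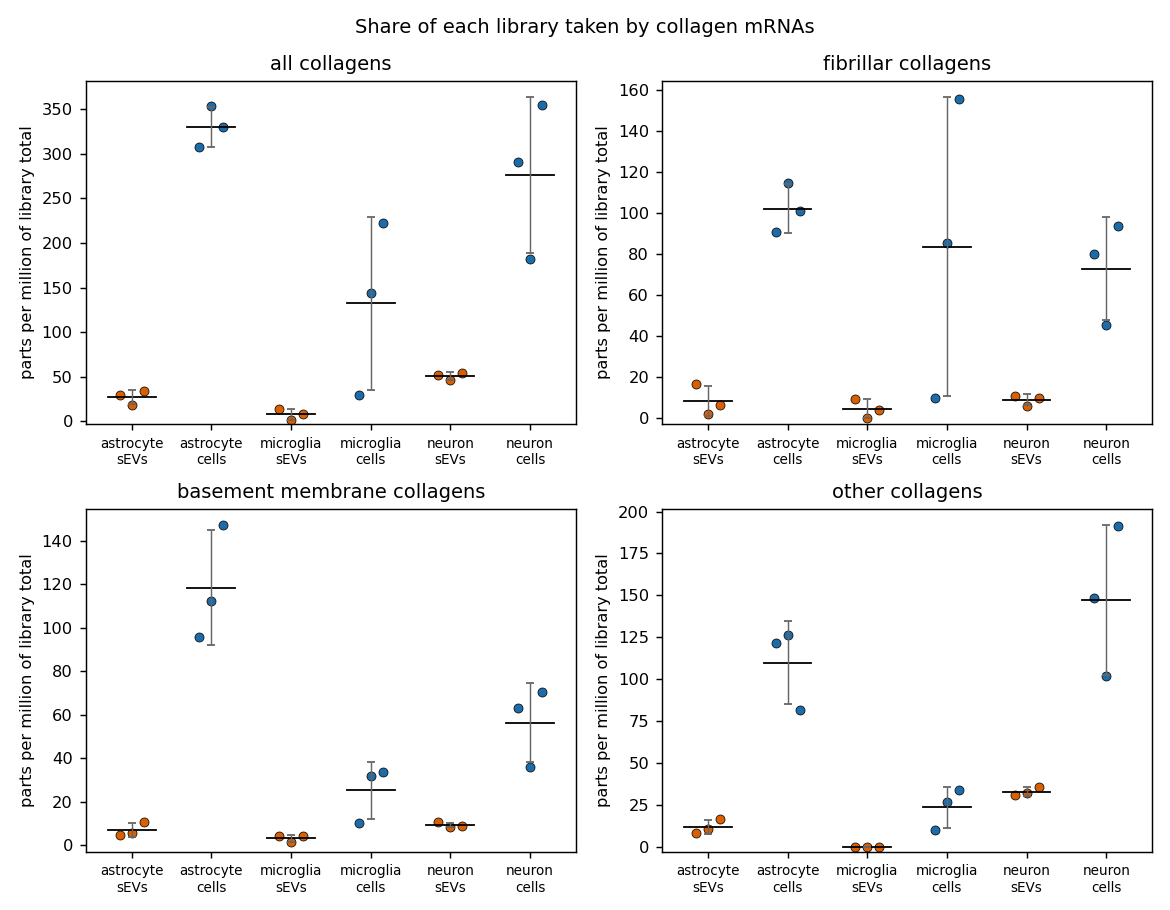
Share of each library's normalized counts taken by all collagens and by each class, in ppm, for 6 groups with sEVs left of the cells they came from. Dots are libraries, lines group means and bars the SD (n = 3). All collagens average 51.0 ppm in neuron sEVs and 276 ppm in neuron cells, and the other collagens are at 0 in all 3 microglia sEV libraries.

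The classes made up different parts of this sum. Fibrillar collagens took 8.20 ± 7.38 ppm in astrocyte sEVs and 102 ± 11.97 ppm in astrocyte cells, 4.43 ± 4.68 ppm in microglia sEVs and 83.5 ± 72.9 ppm in microglia cells, and 8.85 ± 2.56 ppm in neuron sEVs and 72.8 ± 25.0 ppm in neuron cells (SD, n = 3 each). Basement membrane collagens took 7.02 ± 3.29 ppm in astrocyte sEVs and 118 ± 26.4 ppm in astrocyte cells, 3.27 ± 1.64 ppm in microglia sEVs and 25.3 ± 13.1 ppm in microglia cells, and 9.30 ± 1.09 ppm in neuron sEVs and 56.3 ± 18.1 ppm in neuron cells. The other collagens took 11.8 ± 4.19 ppm in astrocyte sEVs and 109.9 ± 24.5 ppm in astrocyte cells, and 32.9 ± 2.70 ppm in neuron sEVs and 147 ± 44.8 ppm in neuron cells. All 25 other collagens were listed at 0 in all 3 microglia sEV libraries, where microglia cells had 23.5 ppm. Relative to the collagen sum, the other collagens were the largest class in neuron cells, at 53.5 ± 2.4%. Fibrillar genes averaged 53.8 ± 19.2% in microglia cells and were the largest class in replicates 2 and 3, at 59.2 and 69.8%. In replicate 1, where the fibroblast markers given further on are also lowest, the 3 classes were near equal, at 32.6% fibrillar, 34.1% basement membrane and 33.3% other. The other collagens made up 64.6 ± 4.9% of the collagen sum in neuron sEVs. Class by class, the share in cells over that in sEVs was 12.4 for fibrillar, 16.9 for basement membrane and 9.31 for other collagens in astrocytes, and 8.22, 6.06 and 4.48 in that order in neurons. In microglia it was 18.9 for fibrillar and 7.75 for basement membrane collagens. The fibrillar ratio was 24.7 in astrocytes without replicate 1 of astrocyte sEVs, and in microglia 42.2 without replicate 1 of the sEVs and 10.7 without replicate 3 of the cells. In astrocytes the order of fibrillar and basement membrane genes thus depended on 1 library. Class differences were not tested.

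Many collagens were listed at 0 in all 3 sEV libraries of astrocytes or of microglia. Only Col6a2, Col6a6, Col10a1, Col15a1, Col17a1, Col24a1 and Col28a1 were listed at 0 in all 9 sEV libraries. Of the 44 genes, 23 were listed at 0 in all 3 astrocyte sEV libraries, against 8 in astrocyte cells. The number was 36 in microglia sEVs and 11 in microglia cells, and 8 in neuron sEVs and 1 in neuron cells. Neuron sEVs had 20 genes above 0 in all 3 libraries, astrocyte sEVs 5 and microglia sEVs 0, where neuron cells had 39, astrocyte cells 31 and microglia cells 20. Of all 54307 gene rows, those with a deposited mean and a value above 0 in any library numbered 17446 in astrocyte sEVs and 22190 in astrocyte cells. The numbers were 13323 and 18987 in that order in microglia, and 20662 and 24929 in neurons. The zeros of collagens were not tested against those of all rows. A value of 0 here is what the table lists and does not show absence. Col17a1, a transmembrane collagen of epithelial junctions, was listed at 0 in all 18 libraries.

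**Figure D2:**
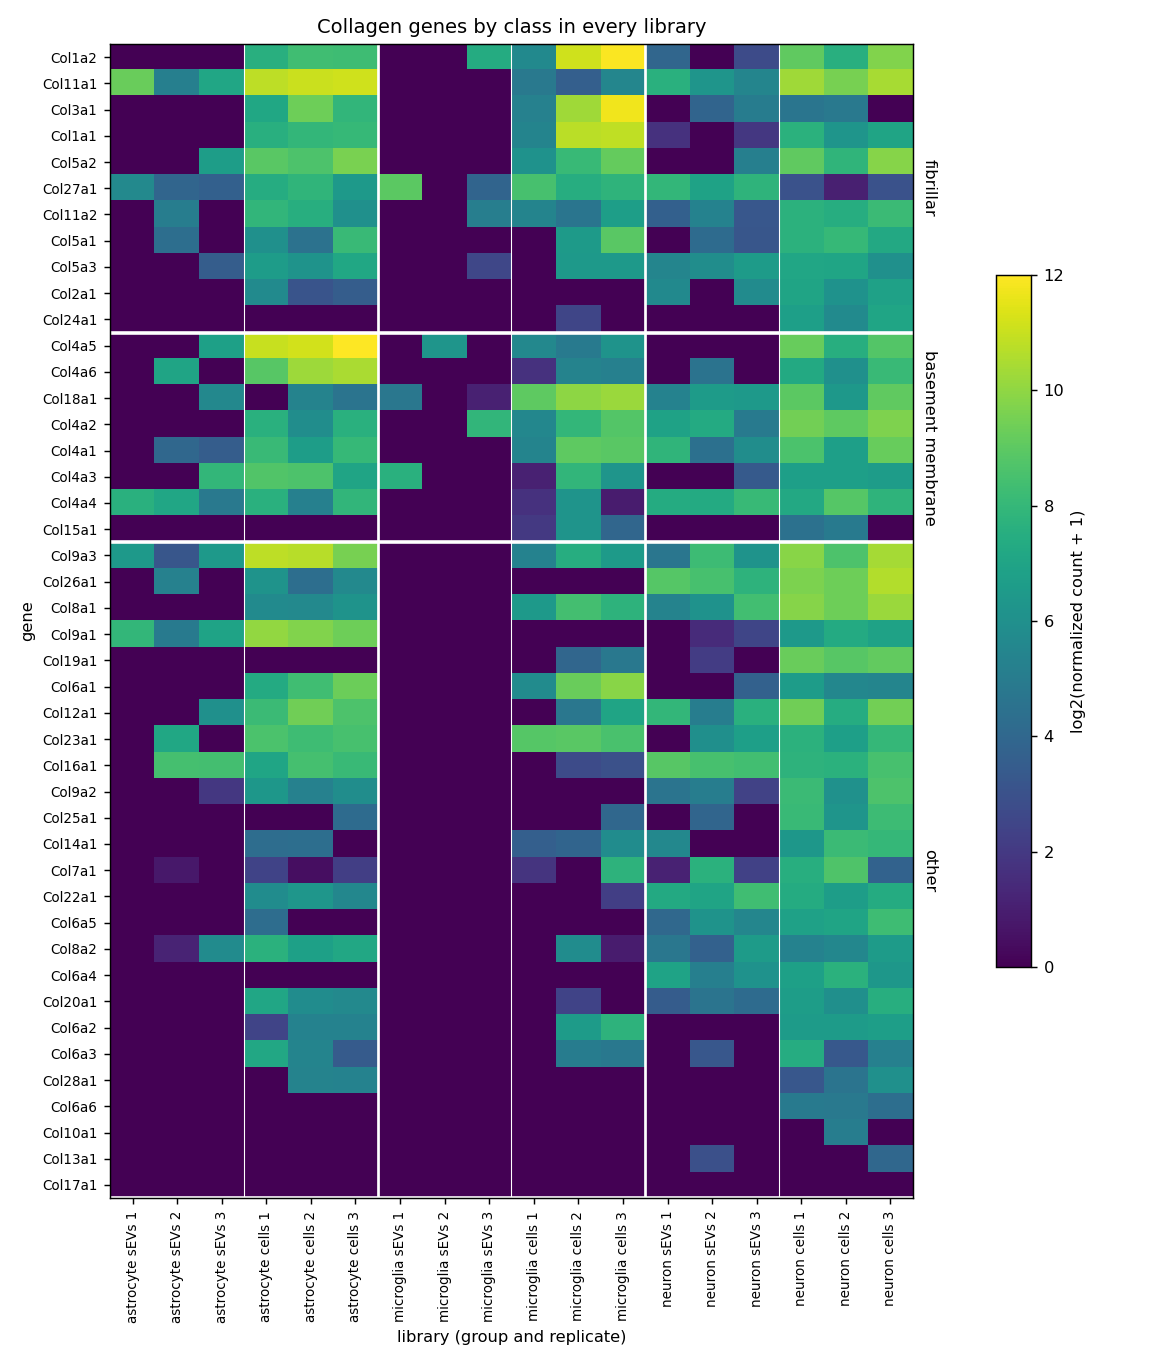
Level of each of the 44 collagen genes in each of the 18 libraries, as log2(normalized count + 1), grouped by class, with sEV libraries left of the cell libraries of the same type. Most of the microglia sEV columns are at 0, and the neuron sEV columns hold 20 genes above 0 in all 3 libraries.

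The test compared sEVs with cells in each type by limma on log2(normalized count + 1) over all 19612 genes that reached 10 in at least 3 of the 18 libraries. Genes with a p below 0.05 after Benjamini-Hochberg adjustment are said to be called. Of the 44 collagens, 41 were tested. All 41 passed the filter through cell libraries, and 21 of them did so through cell libraries alone, so a difference was built into the choice of these 21. Col10a1, Col13a1 and Col17a1 were too low to test. The spread of a gene is estimated over all groups of the fit together. Groups at 0 in all 3 libraries add no spread, so small p-values of such genes do not measure the spread of the compared groups alone. Differences between a group at 0 and another group rest on the pseudocount of 1. Where all 3 libraries of a group were at 0, no fold of a single gene is given on the deposited scale. The quantile-normalized differences given for reversals include such groups.

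In astrocytes, 26 collagens were called lower in sEVs and 0 higher, where 18.6% of all genes tested were called lower and 8% higher. In microglia 16 were lower and 0 higher, where 21.2% of all genes were lower and 5.08% higher. In neurons 22 were lower and 1, Col27a1, was higher, where 18.9% of all genes were lower and 11.1% higher. For the mean over the 3 types 35 were lower and 0 higher, against 37.1% and 12% of all genes. At an unadjusted p under 0.05 the number higher was also 0 in astrocytes, in microglia and for the mean. By class, the calls lower were 8 fibrillar, 4 basement membrane and 14 other collagens in astrocytes, 5, 4 and 7 in that order in microglia, and 6, 3 and 13 in neurons. Some collagens called lower were at 10 or more in at least 3 of the 9 sEV libraries, of whichever cell type. They numbered 14 in astrocytes, 7 in microglia and 5 in neurons, and need not be read in sEVs of that type. Collagens above 0 in all 3 libraries, called or not, numbered 5 in astrocyte sEVs, 0 in microglia sEVs and 20 in neuron sEVs. The median log2 difference over the 41 collagens was -4.91 in astrocytes, -3.50 in microglia and -3.27 in neurons, beside medians of -0.60, -0.79 and -0.47 over all genes tested in the same order. With quantile-normalized values 3 collagens were called higher and 11 lower in microglia. The number lower ran from 11 without replicate 2 of microglia cells to 20 without replicate 1 in microglia, and it was 14 in neurons without replicate 3 of neuron cells.

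**Figure D3:**
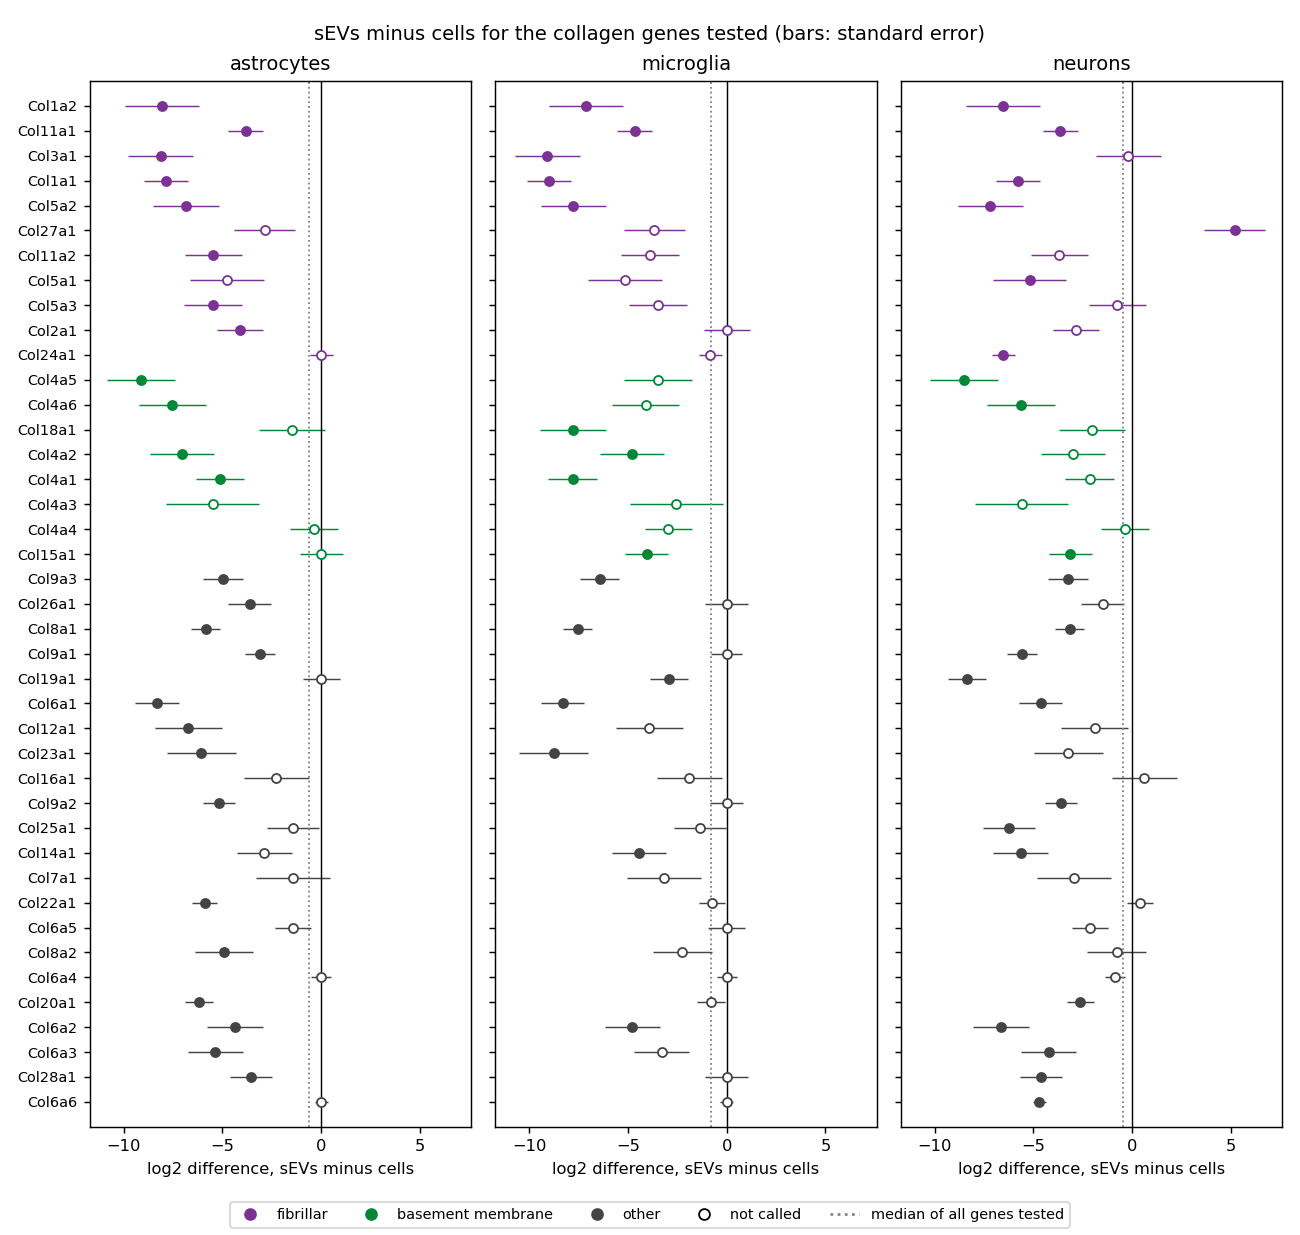
Difference in log2(normalized count + 1), sEVs minus cells, for the 41 tested collagens in astrocytes, microglia and neurons, with standard errors. Filled points are called at an adjusted p under 0.05 and the dotted line is the median of all genes tested. Points at 0 include genes listed at 0 in all 6 libraries of that type, and Col27a1 in neurons, at 5.18, is the only filled point above 0.

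Of the 41 tested collagens, 8 were lower in sEVs of all 3 types, namely Col1a1, Col1a2, Col5a2 and Col11a1 among the fibrillar genes and Col6a1, Col6a2, Col8a1 and Col9a3 among the other collagens. Of all genes tested 4.59% were lower in all 3 types. The astrocyte call of Col6a2 was lost without any 1 astrocyte sEV library (adjusted p = 0.0638 to 0.0733, limma) and without replicate 2 (0.108) or 3 (0.107) of astrocyte cells. Its microglia call was lost without replicate 2 (0.101) or 3 (0.115) of microglia cells. The calls of Col1a2 and Col9a3 that were lost in this way are given with those genes. Another 14 collagens were lower in 2 types and 12 in 1 type. The 7 collagens called lower in 0 types were Col27a1, Col4a3, Col4a4, Col6a4, Col6a5, Col7a1 and Col16a1. For the mean of the types 6 genes were not called, namely Col27a1, Col4a4, Col6a4, Col6a5, Col7a1 and Col16a1.

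Among the fibrillar collagens, the chains of type I, which forms the fibrils of skin, bone and meninges, were at or near 0 in most sEV libraries. Col1a1 was listed at 0 in all 3 libraries of astrocyte sEVs, against 190.0, 243 and 266 in astrocyte cells (adjusted p = 0.000103, limma). It was also at 0 in all 3 microglia sEV libraries, against 41.5, 1752 and 1843 in microglia cells (adjusted p = 2.61e-05). In neuron sEVs it had 2.25, 0 and 2.86, against 203, 76.3 and 128 in neuron cells (log2 -5.77 ± 1.12, SE; adjusted p = 0.00105). No sEV library reached the lowest cell library of its type, and microglia cells split into 1 low library and 2 high ones.

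Col1a2, the partner chain of Col1a1, was listed at 0 in all 3 astrocyte sEV libraries, against 186, 323 and 309.9 in astrocyte cells (adjusted p = 0.00472, limma). Microglia sEVs had 0, 0 and 165, against 50.3, 2236 and 3901 in microglia cells (log2 -7.12 ± 1.85; adjusted p = 0.0103, and 0.054 without replicate 3 of microglia cells). Neuron sEVs had 14.5, 0 and 5.68, against 529, 188 and 834 in neuron cells (log2 -6.54 ± 1.85; adjusted p = 0.0143). The groups overlapped in microglia, where replicate 3 of the sEVs was above replicate 1 of the cells. The neuron call was lost without replicate 2 of neuron sEVs (adjusted p = 0.0683) and without replicate 3 of neuron cells (0.0546). Per kb of transcript, Col1a1 was at 0.14 to 0.92 times Col1a2 in the 9 cell libraries.

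Col3a1 encodes the single chain of type III collagen, which is found with type I in soft connective tissue. It was listed at 0 in all 3 libraries of astrocyte sEVs and of microglia sEVs, against 143, 644 and 236 in astrocyte cells (adjusted p = 0.00189, limma) and 37.4, 1255 and 3379.9 in microglia cells (adjusted p = 0.000766). In neurons it was low in both, with 0, 13.5 and 31.7 in sEVs and 24.3, 27.9 and 0 in cells (log2 -0.21 ± 1.64; adjusted p = 0.966). The sEV difference of Col3a1 varied between the types (F test of limma, adjusted p = 0.0203), and that of microglia was below that of neurons (adjusted p = 0.0133).

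Microglia cells were the group in which libraries differed most for these 3 genes, with replicate 1 low and replicates 2 and 3 high for each of them. Dcn, which encodes the fibroblast proteoglycan decorin, had 21.8 in replicate 1 of microglia cells, against 3035 and 5224 in replicates 2 and 3. The 12 fibroblast and meningeal markers, Dcn included, summed to 3.52 ppm in replicate 1 and 56.3 and 98.2 ppm in replicates 2 and 3 of microglia cells. Dcn alone made up most of the sums of 3897 and 6724 normalized counts in replicates 2 and 3. Of these markers, 6 reached 10 in replicate 1 of microglia cells, 8 in replicate 2 and 7 in replicate 3. Their sum was 18.4 to 34.4 ppm in astrocyte sEVs and 109.9 to 273 ppm in astrocyte cells, 0 to 5.19 ppm in microglia sEVs, and 4.21 to 14.4 ppm in neuron sEVs and 46.8 to 98.0 ppm in neuron cells. Of the 10 of these markers tested, 4 were called lower in sEVs in astrocytes, 5 in microglia and 2 in neurons, beside 18.6%, 21.2% and 18.9% of all genes in that order. Of 10 mural markers, Kcnj8 and Higd1b were listed at 0 in all 18 libraries, and the sum was 16.5 to 50.8 ppm in astrocyte sEVs and 59.1 to 105 ppm in astrocyte cells, 0 to 8.42 ppm in microglia sEVs and 10.6 to 66.2 ppm in microglia cells, and 40.7 to 91.8 ppm in neuron sEVs and 63.0 to 121 ppm in neuron cells. The part of these other cells in the collagen differences was not tested.

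**Figure D4:**
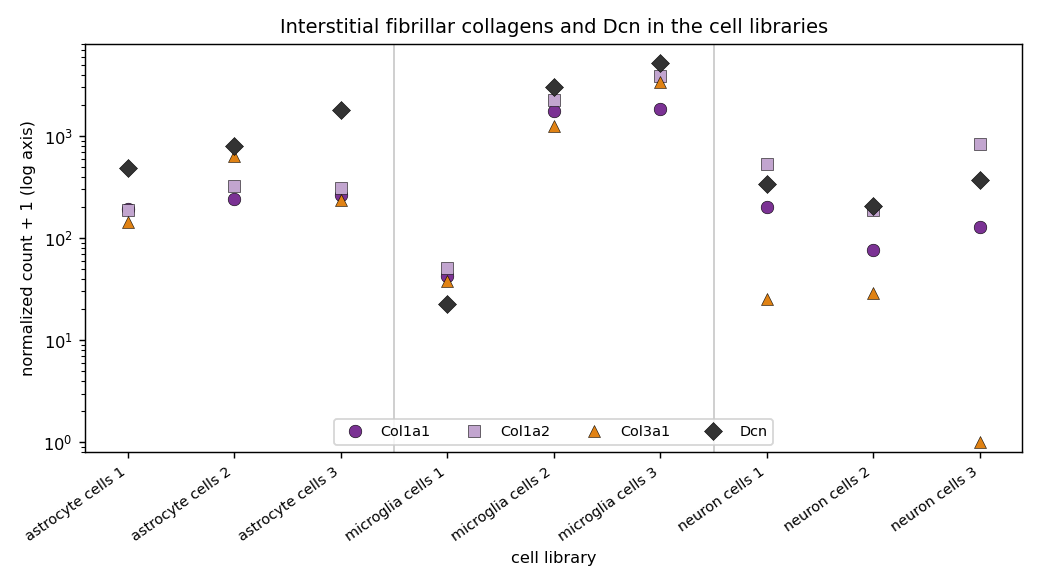
Normalized counts of Col1a1, Col1a2, Col3a1 and the fibroblast gene Dcn in the 9 cell libraries, on a logarithmic axis of value + 1. In microglia cells replicate 1 lies at 21.8 to 50.3 for the 4 genes, and replicates 2 and 3 lie at 1255 to 5224.

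Col5a2, a chain of type V collagen that helps to start type I fibrils, had 0, 0 and 100.7 in astrocyte sEVs, against 491, 405 and 772 in astrocyte cells (log2 -6.84 ± 1.65; adjusted p = 0.00632, limma). All 3 microglia sEV libraries were at 0, against 67.3, 267 and 569 in microglia cells (adjusted p = 0.00267). Neuron sEVs had 0, 0 and 34.9, against 531, 229.5 and 901 in neuron cells (log2 -7.18 ± 1.65; adjusted p = 0.0037). The groups did not overlap in any type.

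Col11a1, a chain of type XI collagen that controls fibril diameter in cartilage, was the fibrillar gene with most signal in astrocyte sEVs. It had 616, 34.9 and 138 there, against 1795, 2106 and 2272 in astrocyte cells (log2 -3.82 ± 0.89; adjusted p = 0.00498, limma). Neuron sEVs had 198, 74.7 and 42.5, against 1248, 753 and 1356 in neuron cells (log2 -3.64 ± 0.89; adjusted p = 0.00551). It was listed at 0 in all 3 microglia sEV libraries, and microglia cells had 28.0, 11.3 and 44.0 (adjusted p = 0.00117). Col11a1 was low in microglia cells and high in both astrocyte and neuron cells.

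Col27a1, a fibrillar collagen known from developing cartilage, was the only collagen called higher in sEVs of any type. Neuron sEVs had 247, 118 and 219, against 7.12, 1.07 and 7.14 in neuron cells (log2 5.18 ± 1.54; adjusted p = 0.0191, limma). The lowest neuron sEV library was above the highest neuron cell library. The call was lost without replicate 1 of neuron sEVs (adjusted p = 0.0579), without their replicate 3 (0.0537) and without replicate 2 of neuron cells (0.0766). In the other two types Col27a1 was not called: astrocyte sEVs had 48.4, 14.2 and 11.7 and astrocyte cells 174, 228 and 87.9 (log2 -2.85 ± 1.54; adjusted p = 0.2). Microglia sEVs had 503, 0 and 13.5 and microglia cells 367, 178 and 225 (log2 -3.67 ± 1.54; adjusted p = 0.0978). The sEV difference varied between the types (F test, adjusted p = 0.0137). The difference of astrocytes minus that of neurons was -8.03 ± 2.18 (adjusted p = 0.0477), and that of microglia minus that of neurons -8.84 ± 2.18 (adjusted p = 0.00945). Among the cells, Col27a1 was higher in astrocyte cells than in neuron cells (log2 4.89; adjusted p = 0.000756) and higher in microglia cells than in neuron cells (log2 5.58; adjusted p = 9.24e-05).

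**Figure D5:**
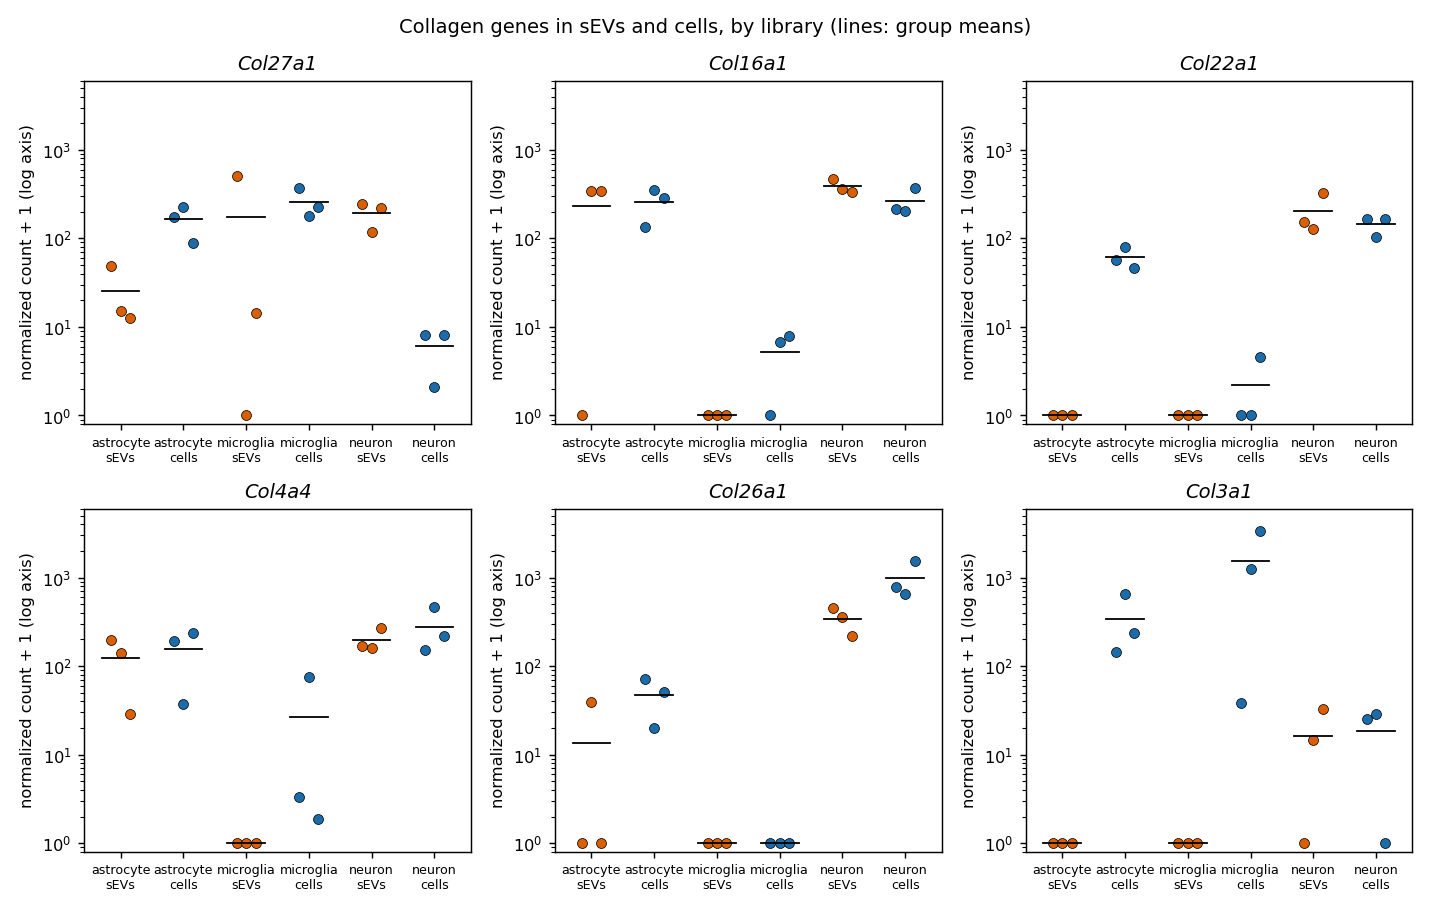
Normalized counts of Col27a1, Col16a1, Col22a1, Col4a4, Col26a1 and Col3a1 in each library, on a logarithmic axis of value + 1, with sEVs left of cells in each type and lines at group means. Col27a1 lies at 118 to 247 in neuron sEVs and at 1.07 to 7.14 in neuron cells, and Col16a1 lies at 333 to 470.2 in neuron sEVs and at 205 to 367 in neuron cells.

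Col24a1, the fibrillar collagen with the shortest helix run beside Col27a1, was seen almost only in neuron cells. All 3 neuron sEV libraries were at 0, against 109, 52.4 and 132 in neuron cells (adjusted p = 7.63e-07, limma). It was at 0 in all 6 astrocyte libraries and in all microglia libraries but replicate 2 of microglia cells, which had 4.69. The sEV difference varied between the types (F test, adjusted p = 6.72e-05). Col24a1 passed the filter only through neuron cells, where it is high, so these differences were built into its choice. The remaining 4 fibrillar genes, Col2a1, Col5a1, Col5a3 and Col11a2, were each called lower in sEVs of 1 type. The astrocyte call of Col2a1 was lost without replicate 1 of astrocyte cells (adjusted p = 0.081, limma). That of Col11a2 was lost without replicate 1 of astrocyte sEVs (0.0518). The neuron call of Col5a1 was lost without replicate 1 (0.188) or 3 (0.0773) of neuron sEVs and without any 1 neuron cell library (0.091 to 0.113). It was also lost without 1 of several libraries of the other types (0.0507 to 0.0598). Col5a3 had 43.6, 57.6 and 94.8 in neuron sEVs and 138, 131 and 64.0 in neuron cells (log2 -0.75 ± 1.47; adjusted p = 0.774), and it is named here after its values were seen.

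Among basement membrane collagens, the 6 chains of type IV form trimers in fixed combinations, in which Col4a1 goes with Col4a2, Col4a3 with Col4a4 and Col4a5, and Col4a5 with Col4a6. The genes lie in pairs on opposite strands. The annotated starts of Col4a1 and Col4a2 are 21 bases apart, and those of Col4a5 and Col4a6 1343 bases (RefSeq, GRCm38.p6, not the build of the table). The first exons of Col4a1 and Col4a2 share 22 bases in GENCODE vM21, under 1% of either gene. The library kit does not keep the strand, so reads from shared bases cannot be told apart. The share of exon bases that overlaps a gene on the opposite strand was 5.65% in Col4a3 (with C430014B12Rik) and 6.07% in Col9a3 (with Tcfl5). In each other collagen with an overlap it was below 2% for any single overlapping gene.

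Col4a5 had the highest mean of any collagen, and fell in sEVs of astrocytes and neurons. It had 0, 0 and 113 in astrocyte sEVs, against 2045, 2287 and 4208 in astrocyte cells (log2 -9.12 ± 1.72; adjusted p = 0.00113, limma). It was listed at 0 in all 3 neuron sEV libraries, against 596, 182 and 438 in neuron cells (adjusted p = 0.00147). Microglia sEVs had 0, 74.4 and 0 and microglia cells 48.2, 29.9 and 70.2 (log2 -3.50 ± 1.72; adjusted p = 0.158), and these groups overlapped.

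Col4a6, its neighbour, had 0, 129 and 0 in astrocyte sEVs, against 471, 1229 and 1442 in astrocyte cells (log2 -7.54 ± 1.71; adjusted p = 0.00424, limma). Neuron sEVs had 0, 22.8 and 0, against 156, 64.4 and 276 in neuron cells (log2 -5.62 ± 1.71; adjusted p = 0.0211). The neuron call was lost without replicate 1 (adjusted p = 0.0856) or 3 (0.0839) of neuron sEVs and without replicate 1 (0.0582) or 3 (0.0759) of neuron cells. Microglia sEVs were listed at 0 in all 3 libraries and microglia cells had 2.3, 40.0 and 37.0 (adjusted p = 0.0929). Per kb of transcript, Col4a5 exceeded Col4a6 in all 3 astrocyte cell libraries, at 4.42, 1.89 and 2.97 times, and in all 3 neuron cell libraries, at 3.88, 2.88 and 1.61 times.

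Col4a1 and Col4a2 encode the chains of the type IV network found in nearly all basement membranes, that of brain vessels included. Col4a1 had 0, 14.9 and 10.6 in astrocyte sEVs, against 283, 102 and 260.3 in astrocyte cells (log2 -5.11 ± 1.23; adjusted p = 0.00636, limma). It was listed at 0 in all 3 microglia sEV libraries, against 41.5, 518 and 492 in microglia cells (adjusted p = 0.000253). Neuron sEVs had 231, 20.3 and 57.3 and neuron cells 392, 107 and 593, which overlapped (log2 -2.15 ± 1.23; adjusted p = 0.219). The difference in microglia was below that in neurons (adjusted p = 0.0324), although the F test over the 3 types did not call it.

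Col4a2 was listed at 0 in all 3 astrocyte sEV libraries, against 198, 57.4 and 198 in astrocyte cells (adjusted p = 0.0047, limma). Neuron sEVs had 121, 159 and 29.3 and neuron cells 689, 524 and 831 (log2 -3.0 ± 1.62; adjusted p = 0.191), with no overlap. Microglia sEVs had 0, 0 and 236, against 45.7, 245 and 440.1 in microglia cells (log2 -4.79 ± 1.62; adjusted p = 0.0407). That call was lost without replicate 1 (adjusted p = 0.16) or 2 (0.151) of microglia sEVs and without replicate 2 (0.113) or 3 (0.139) of microglia cells. It was also lost without replicate 1 or 3 of astrocyte cells, replicate 1 of neuron sEVs or any 1 neuron cell library, at adjusted p-values of 0.0508 to 0.0519. Per kb, Col4a1 was at 1.28 to 1.73 times Col4a2 in astrocyte cells and at 0.20 to 0.70 times in neuron cells. In microglia cells the ratio was 0.88, 2.06 and 1.09, so the order of the pair differed between libraries.

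Col4a3 and Col4a4 encode chains of the kidney and inner-ear type IV network. Col4a3 was uneven: 0, 0 and 245 in astrocyte sEVs against 431, 395 and 128 in astrocyte cells, 195, 0 and 0 in microglia sEVs against 1.15, 240.3 and 75.8 in microglia cells, and 0, 0 and 9.55 in neuron sEVs against 107, 109 and 99.4 in neuron cells. No single type was called for Col4a3 (lowest adjusted p = 0.0878, in neurons, limma), and the mean of the types was (log2 -4.55 ± 1.35; adjusted p = 0.0122). Col4a4, named here after its values were seen, had 198, 138 and 27.7 in astrocyte sEVs and 192, 36.0 and 236 in astrocyte cells (log2 -0.36 ± 1.20; adjusted p = 0.905). In neuron sEVs it had 166, 160.2 and 269, and in neuron cells 149.7, 462 and 219.5 (log2 -0.36 ± 1.20; adjusted p = 0.881). The sEV and cell libraries overlapped in both types. In microglia sEVs Col4a4 was listed at 0 in all 3 libraries, and microglia cells had 2.31, 73.7 and 0.882.

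Col18a1, a basement membrane collagen whose end fragment is endostatin, was the leading basement membrane gene of microglia cells. Microglia sEVs had 26.2, 0 and 1.11, against 519.6, 1000.2 and 1181 in microglia cells (log2 -7.78 ± 1.67; adjusted p = 0.00293, limma). Neuron sEVs had 39.2, 96.2 and 86.7 and neuron cells 508, 84.6 and 531 (log2 -2.03 ± 1.67; adjusted p = 0.414). Astrocytes were low in both, with 0, 0 and 47.1 in sEVs and 0, 40.1 and 23.5 in cells. Col15a1, its close relative, stayed at or below 72.7 in every library. In the F test of limma between types 0 of the 8 basement membrane genes were called, and 3 of them had an unadjusted p under 0.05. Of 12 endothelial markers, Cldn5 was listed at 0 in all 9 sEV libraries, and the summed markers took 0.0366 to 7.89 ppm in astrocyte sEVs and 21.3 to 49.7 ppm in astrocyte cells, 0 to 39.2 ppm in microglia sEVs and 20.4 to 27.1 ppm in microglia cells, and 9.24 to 11.5 ppm in neuron sEVs and 50.4 to 68.0 ppm in neuron cells. Their part in the type IV differences was not tested.

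The fibril-associated collagens, which sit on the surface of fibrils, held the most sEV signal of the other collagens. They took 10.2 ppm in astrocyte sEVs and 81.9 ppm in astrocyte cells, and 17.8 ppm in neuron sEVs and 71.9 ppm in neuron cells. Type IX collagen, a partner of type II fibrils, has 3 chains, of which Col9a3 and Col9a1 were the highest fibril-associated genes in astrocyte cells. Col9a3 had 88.0, 8.26 and 86.6 in astrocyte sEVs, against 1762, 1689.6 and 747 in astrocyte cells (log2 -4.97 ± 1.01; adjusted p = 0.00199, limma). All 3 microglia sEV libraries were at 0, against 39.4, 176 and 90.8 in microglia cells (adjusted p = 0.000235). Neuron sEVs had 24.9, 299 and 70.4, against 926, 401 and 1339.7 in neuron cells (log2 -3.27 ± 1.01; adjusted p = 0.0231). The groups did not overlap in any type. The neuron call was lost without replicate 1 (adjusted p = 0.114) or 3 (0.0636) of neuron sEVs and without replicate 1 (0.0697) or 3 (0.0911) of neuron cells.

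Col9a1 had 246, 28.7 and 123 in astrocyte sEVs, against 1077, 839 and 642 in astrocyte cells (log2 -3.11 ± 0.78; adjusted p = 0.00797, limma). Neuron sEVs had 0, 1.76 and 4.78, against 86.9, 163 and 121 in neuron cells (log2 -5.58 ± 0.78; adjusted p = 5.94e-05). All 6 microglia libraries were at 0. Col9a2 had 0, 0 and 2.87 in astrocyte sEVs, against 79.6, 38.1 and 57.9 in astrocyte cells (log2 -5.18 ± 0.82; adjusted p = 0.000272). Neuron sEVs had 23.6, 32.6 and 4.2 of Col9a2, against 288, 66.4 and 407 in neuron cells (log2 -3.62 ± 0.82; adjusted p = 0.00348), and it too was at 0 in all 6 microglia libraries. Both genes passed the F test between types, at an adjusted p of 0.00571 for Col9a1 and 0.0119 for Col9a2.

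Col16a1, a fibril-associated collagen named here after its values were seen, was among the highest collagens of astrocyte and neuron sEVs and was not called lower in any type. Neuron sEVs had 470.2, 359 and 333 and neuron cells 213, 205 and 367 (log2 0.60 ± 1.64; adjusted p = 0.849, limma). Astrocyte sEVs had 0, 346 and 341 and astrocyte cells 134, 353 and 282 (log2 -2.28 ± 1.64; adjusted p = 0.35). The groups overlapped in both types, and the standard error leaves room for large differences in either direction. In microglia it was listed at 0 in all 3 sEV libraries and had 0, 5.69 and 6.85 in cells. Col16a1 had the highest mean level of any collagen per kb of its longest transcript in astrocyte sEVs, at 44.0 normalized counts per kb.

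Col22a1, a collagen of tissue junctions such as that of muscle and tendon, was read in the sEVs of neurons and listed at 0 in those of the other two types. Neuron sEVs had 154, 127 and 324 and neuron cells 166, 102 and 166, which overlapped (log2 0.39 ± 0.64; adjusted p = 0.72, limma). It was listed at 0 in all 3 astrocyte sEV libraries, although astrocyte cells had 55.7, 79.3 and 45.8 (adjusted p = 8.67e-06). Microglia sEVs were listed at 0 in all 3 libraries and microglia cells had 0, 0 and 3.63. The sEV difference varied between the types (F test, adjusted p = 0.000251), and that of astrocytes was below that of neurons (adjusted p = 0.000551).

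Col20a1 and Col19a1 are minor members of the fibril-associated class. Col20a1 was listed at 0 in all 3 astrocyte sEV libraries, against 134, 55.7 and 48.5 in astrocyte cells (adjusted p = 1.25e-05, limma). Neuron sEVs had 10.1, 23.5 and 17.3 of Col20a1, against 100.6, 62.7 and 181 in neuron cells (log2 -2.63 ± 0.70; adjusted p = 0.00974, and 0.0507 without replicate 3 of neuron cells). In microglia Col20a1 was at 0 in 5 of 6 libraries, with 4.37 in replicate 2 of the cells. Col19a1, which some neurons express, had 0, 3.39 and 0 in neuron sEVs, against 607, 464 and 556 in neuron cells (log2 -8.37 ± 0.94; adjusted p = 7.63e-06). Microglia sEVs were at 0 for Col19a1 in all 3 libraries, against 0, 14.7 and 26.9 in microglia cells (adjusted p = 0.0324, and 0.0598 to 0.16 without any 1 of the 3 microglia sEV libraries or without replicate 2 or 3 of the cells). It was at 0 in all 6 astrocyte libraries. In the F test between types the adjusted p was 0.00313 for Col20a1 and 0.000952 for Col19a1. Outside neuron cells Col19a1 reached 10 only in replicates 2 and 3 of microglia cells, so it would not pass the filter without neuron cells. Its neuron and F test differences were thus in part built into its choice.

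The beaded filament chains of type VI, which form a fine network around cells, took 2.41 ppm in neuron sEVs and 13.5 ppm in neuron cells, and 0 ppm in astrocyte sEVs and microglia sEVs. Col6a1 was listed at 0 in all 3 astrocyte sEV libraries, against 159, 314 and 639 in astrocyte cells (adjusted p = 5.06e-05, limma), and in all 3 microglia sEV libraries, against 54.0, 615 and 929 in microglia cells (adjusted p = 4.77e-05). Neuron sEVs had 0, 0 and 12.4 of Col6a1, against 96.6, 45.5 and 43.6 in neuron cells (log2 -4.63 ± 1.09; adjusted p = 0.00458). Col6a6 was seen in neuron cells alone, at 29.4, 27.8 and 19.5, and listed at 0 in the other 15 libraries (neuron sEVs against neuron cells, adjusted p = 5.12e-08, and F test, adjusted p = 2.89e-06). It passed the filter only through neuron cells, where it is high, so both differences were built into its choice. Col6a4 and Col6a5, named here after their values were seen, were the type VI chains above 0 in all 3 neuron sEV libraries. Col6a4 had 123, 35.8 and 68.9 in neuron sEVs and 111, 204 and 81.3 in neuron cells, and was listed at 0 in the 12 libraries of the other types. Col6a5 had 15.8, 70.4 and 44.9 in neuron sEVs and 117, 126 and 310.1 in neuron cells. Neither was called between sEVs and cells in any type.

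Col8a1, a short-chain collagen of vessel walls and the eye, was listed at 0 in all 3 astrocyte sEV libraries, against 53.3, 49.3 and 69.6 in astrocyte cells (adjusted p = 3.43e-05, limma). It was at 0 in all 3 microglia sEV libraries as well, against 85.4, 339.6 and 218 in microglia cells (adjusted p = 2.38e-06). Neuron sEVs had 40.0, 69.5 and 329, against 910.0, 644 and 1162 in neuron cells (log2 -3.16 ± 0.74; adjusted p = 0.00424). The groups did not overlap in any type, and the sEV difference varied between types (F test, adjusted p = 0.0196). Col26a1, a small collagen first described in testis and ovary, had the highest level per kb of transcript in neuron cells and was not called in neurons, with 449, 361 and 217 in neuron sEVs and 789, 659 and 1555 in neuron cells (log2 -1.50 ± 1.10; adjusted p = 0.349). Astrocyte sEVs had 0, 38.0 and 0 of Col26a1, against 70.9, 19.1 and 49.6 in astrocyte cells (log2 -3.62 ± 1.10; adjusted p = 0.0236). This astrocyte call was lost without replicate 1 (adjusted p = 0.102) or 3 (0.0915) of astrocyte sEVs and without replicate 1 (0.087) or 3 (0.0682) of astrocyte cells. Col26a1 was listed at 0 in all 6 microglia libraries.

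The order of collagens within a group is given per kb of the longest annotated transcript, since longer transcripts collect more reads. Col16a1 led in astrocyte sEVs and Col9a3 in astrocyte cells. Col27a1 led in microglia sEVs, where 1 library carried nearly all of it, and Col1a2 in microglia cells. Col26a1 led in neuron sEVs and in neuron cells. With the mean transcript length in place of the longest, the leading gene was Col4a5 in astrocyte cells, Col3a1 in microglia cells and Col16a1 in neuron sEVs, and the same as above in the other 3 groups.

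Of the 41 collagens tested, 10 had an sEV difference that varied between the 3 types at an adjusted p under 0.05 (F test of limma), or 24.4%, where 21.6% of all genes tested did. They were 3 fibrillar genes (Col3a1, Col24a1 and Col27a1), 0 basement membrane genes and 7 other collagens (Col6a6, Col8a1, Col9a1, Col9a2, Col19a1, Col20a1 and Col22a1). At an unadjusted p under 0.05 there were 16 collagens in this test. For Col19a1, Col24a1, Col6a6, Col9a1 and Col9a2 at least 1 type had all 6 libraries at 0, so that type had a difference of 0 by construction. Col24a1 and Col6a6 also passed the filter through neuron cells alone, so a difference between types was built into their choice. Col19a1 too would not pass the filter without neuron cells.

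Genes that make and process collagen chains were counted next. Of 36 genes for collagen synthesis and crosslinking, 35 were in the table and 34 were tested. For the mean of the types 33 were called lower and 0 higher, where 37.1% of all genes were lower. By type, 22 were lower in astrocytes, 22 in microglia and 12 in neurons, where 18.6%, 21.2% and 18.9% of all genes were, and 0 were higher in any type, also at an unadjusted p under 0.05. The median log2 difference for the mean of the types was -4.48, beside -0.93 for all genes. The list took 382 ± 56.2 ppm in astrocyte sEVs and 5771 ± 697 ppm in astrocyte cells, 380.0 ± 100.8 ppm in microglia sEVs and 2586 ± 284 ppm in microglia cells, and 273 ± 53.3 ppm in neuron sEVs and 3840 ± 515 ppm in neuron cells.

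The 6 of these genes with the smallest p-values included enzymes and chaperones of the endoplasmic reticulum. Pdia3, a disulfide isomerase, had 2077, 3294.2 and 2056 in astrocyte sEVs, against 62009, 66607 and 74728 in astrocyte cells (mean of the types, log2 -4.47 ± 0.11; adjusted p = 1.33e-12, limma). Ppib, a proline isomerase, had a log2 difference of -2.57 ± 0.12 for the mean of the types (adjusted p = 3.85e-10). P4hb and P4ha1, the subunits of prolyl 4-hydroxylase, which stabilises the triple helix, had -2.98 ± 0.16 (adjusted p = 1.39e-09) and -2.97 ± 0.25 (2.33e-07). Fkbp10, another collagen chaperone, was listed at 0 in all 3 libraries of astrocyte sEVs and of microglia sEVs, against means of 576 in astrocyte cells and 192 in microglia cells (adjusted p = 5.91e-08 for the mean of the types). Loxl1, a crosslinking enzyme, was listed at 0 in the same 6 sEV libraries, against means of 117 in astrocyte cells and 299.6 in microglia cells (adjusted p = 2.4e-06). The 1 gene not called was Loxl4, another crosslinking enzyme, at an adjusted p of 0.65.

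The partners of type IV collagen in basement membranes are laminins, nidogens, perlecan and agrin. Of 15 such genes 14 were tested, and for the mean of the types 12 were lower and 0 higher in sEVs (median log2 -3.51), where 37.1% of all genes were lower. By type, 7 were lower in astrocytes, 7 in microglia and 3 in neurons, beside the same 18.6%, 21.2% and 18.9% of all genes. Hspg2, which encodes perlecan, had 29.4, 0 and 0.596 in astrocyte sEVs, against 200.04, 211 and 334 in astrocyte cells (mean of the types, adjusted p = 1.34e-05, limma). The laminin chains Lama4 and Lamb1 had adjusted p-values of 7.29e-05 and 0.000418 for the mean of the types, and the nidogens Nid2 and Nid1 0.000271 and 0.000344. Nid2 was uneven across types: astrocyte sEVs had 1125, 634 and 289 and astrocyte cells 1635, 1160.4 and 2371 (log2 -1.48 ± 1.28; adjusted p = 0.445). The 2 partners not called were the laminin chains Lama3 (adjusted p = 0.106) and Lamb3 (0.0734).

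Collagen receptors include integrins, discoidin domain receptors and the uptake receptor Mrc2. Of 10 such genes 9 were tested, and 5 were lower and 0 higher for the mean of the types (median log2 -2.01), where 37.1% of all genes were lower. By type, 3 were lower in astrocytes, 3 in microglia and 2 in neurons, where 18.6%, 21.2% and 18.9% of all genes were. Itgb1, the common beta chain of the collagen-binding integrins, had 3199.6, 2515 and 1926 in astrocyte sEVs, against 16813, 18019 and 21757 in astrocyte cells (mean of the types, log2 -2.997 ± 0.131; adjusted p = 2.37e-10, limma). Itga1 and Ddr1, a collagen-binding integrin chain and a receptor kinase, had adjusted p-values of 1.66e-06 and 4.08e-06 for the mean of the types, where both were lower in sEVs. Mrc2 (adjusted p = 0.0182) and Itga11 (0.0241) were also lower, and Itga2 was not called (adjusted p = 0.288).

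Between cell types, the collagens that differed came from all classes. The 3 pairwise comparisons share libraries, and 18410 genes were tested in the 9 cell libraries. Astrocyte cells had 14 collagens higher and 4 lower than microglia cells, where 43.6% of all genes were higher and 20.8% lower. The 4 lower were Col8a1, Col15a1, Col18a1 and Col19a1. Astrocyte cells had 3 higher (Col4a5, Col9a1 and Col27a1) and 11 lower than neuron cells, where 10.4% of all genes were higher and 22.1% lower. Microglia cells had 3 higher (Col3a1, Col23a1 and Col27a1) and 23 lower than neuron cells, where 19.9% of all genes were higher and 51.8% lower. Among cell libraries, Col6a4, Col6a6 and Col24a1 reached 10 in neuron cells alone. They passed this filter only through the group where they are high, so lower values in the other cells were built into their choice. Col2a1, Col6a5, Col7a1, Col15a1, Col19a1, Col25a1 and Col28a1 reached 10 in fewer than 3 cell libraries outside neuron cells. They too would not be tested without neuron cells, so the counts lower than in neuron cells are not free of this choice.

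Several of these counts depended on 1 library or on the scaling. Without replicate 1 of microglia cells, 7 collagens were lower in astrocyte than in microglia cells, 6 were higher in astrocyte than in neuron cells and 6 were higher in microglia than in neuron cells. Without replicate 2 of microglia cells only 1 was lower in astrocyte than in microglia cells, and without any 1 of the astrocyte cell libraries or replicate 3 of microglia cells 2 were. Without replicate 1 or 3 of neuron cells, 6 were lower in astrocyte than in neuron cells, and without replicate 3 of neuron cells 15 were lower in microglia than in neuron cells. With quantile-normalized values the calls were 11 higher and 9 lower for astrocyte against microglia cells, 8 higher and 11 lower for astrocyte against neuron cells, and 6 higher and 15 lower for microglia against neuron cells.

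Some of the called genes had a several-fold higher level in 1 type. Col9a1 averaged 853 ± 218 in astrocyte cells and 124 ± 38.0 in neuron cells (log2 2.79; adjusted p = 0.00168, limma). Col4a5 averaged 2847 ± 1185 in astrocyte cells, 49.4 ± 20.2 in microglia cells (log2 5.82; adjusted p = 1.65e-05) and 405 ± 209 in neuron cells (log2 2.89; adjusted p = 0.00291). Col18a1 averaged 21.2 ± 20.1 in astrocyte cells and 900.4 ± 342 in microglia cells (log2 -6.41; adjusted p = 0.00292). Col8a1 averaged 57.4 ± 10.8 in astrocyte cells and 905 ± 259 in neuron cells (log2 -3.93; adjusted p = 0.000491), and 214 ± 127 in microglia cells (against neuron cells, log2 -2.24; adjusted p = 0.00357). Col3a1 averaged 1557 ± 1692 in microglia cells and 17.4 ± 15.2 in neuron cells (log2 5.92; adjusted p = 0.0167), and this call was lost without replicate 3 of microglia cells (0.052) and without replicate 3 of neuron cells (0.0537).

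In the sEV libraries 15514 genes and 20 collagens were tested, which passed the filter in at least 3 of the 9 sEV libraries. Col9a1 reached 10 in astrocyte sEVs alone, and Col6a4, Col6a5, Col8a1, Col20a1 and Col22a1 in neuron sEVs alone. These 6 passed the filter only through the group where they are high, so a difference was built into their choice. Astrocyte sEVs had 4 collagens higher than microglia sEVs (Col4a4, Col9a1, Col9a3 and Col11a1) and 0 lower, where 26.6% of all genes were higher and 12.9% lower. Each of these 4 was listed at 0 in all 3 microglia sEV libraries. Astrocyte sEVs had 1 collagen higher than neuron sEVs, Col9a1, and 7 lower (Col5a3, Col6a4, Col6a5, Col8a1, Col20a1, Col22a1 and Col26a1), where 3.13% of all genes were higher and 11.8% lower. Microglia sEVs had 0 higher and 14 lower than neuron sEVs, where 13.6% of all genes were higher and 45.3% lower. At an unadjusted p under 0.05 the counts of 0 by limma were also 0.

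Col9a1 averaged 133 ± 109 in astrocyte sEVs and 2.18 ± 2.42 in neuron sEVs (log2 5.27; adjusted p = 0.00666, limma, and 0.0828 and 0.0679 without replicates 1 and 2 of neuron sEVs). Col26a1 averaged 12.7 ± 21.9 in astrocyte sEVs and 342 ± 117 in neuron sEVs (log2 -6.60; adjusted p = 0.0142, and 0.0753 to 0.106 without any 1 neuron sEV library). Without any 1 library of neuron sEVs, 0 collagens were called lower in astrocyte than in neuron sEVs, and 8 or 9 were lower in microglia than in neuron sEVs. In both counts the 5 genes at 10 or more in neuron sEVs alone were then no longer tested. Col5a3 and Col26a1, also lower in astrocyte than in neuron sEVs, stayed in the test, though both needed neuron sEVs to pass the filter. Col5a3 had an adjusted p of 0.128 to 0.148 without any 1 neuron sEV library, and 0.0799 and 0.0716 without replicates 1 and 2 of astrocyte sEVs. Col9a1 was likewise no longer tested without any 1 astrocyte sEV library. With quantile-normalized values the sEV calls were 0 higher and 2 lower for astrocyte against microglia, 1 higher and 2 lower for astrocyte against neuron, and 3 higher and 2 lower for microglia against neuron libraries. Under that scaling the log2 differences of Col20a1, Col4a1, Col5a3, Col6a4, Col6a5 and Col8a2 between microglia and neuron sEVs were above 0, where these genes were called lower in microglia sEVs on the deposited scale.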

How the data were processed

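Poly(A) RNA of 18 libraries was analysed in 6 groups of 3, as the labels group them. Per the labels' protocols, cDNA was primed on poly(A) with a low-input kit, amplified and made into libraries with a transposase kit, which does not keep the strand. The authors quantified reads with Salmon 1.8.0 on GRCm39 and normalized with DESeq2, per the submitters' processing notes. The deposited values are a signal on the scale of normalized counts. Whole reads could not be recovered from them: after division by each library's commonest value, 2.9 to 9.04% of the values below 100 were whole within 0.001. Depth is therefore unknown, and no count model was run.

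Differences were tested by limma 3.58.1 (R 4.3.3) on log2(value + 1), with an empirical Bayes trend, over genes at 10 or more in at least 3 libraries of the fit, with Benjamini-Hochberg adjustment over all of them. The sEV effects shared 1 fit of 18 libraries, and the cell types were compared within 9 cell or 9 sEV libraries. The model was checked on simulated data. Shares are a gene set's sum over the library's total. Transcript lengths, coding sequences and exon overlaps came from GENCODE vM21 (GRCm38), another build than that of the table, and start sites from RefSeq. Python 3.11.15 and pandas 2.3.3 were used.

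The members and lists were chosen with earlier results of these data known. Values in every library are given for at most the 6 highest members of a class with a group mean of at least 100, for members called higher in sEVs and for those in the F test. Of each other list at most the 6 genes with the smallest p for the mean of the types are named, most by that p alone, besides the genes not called. Alternatives were a pseudocount of 10, a filter of 50, no filter, equal totals, quantile normalization, library weights, a replicate block, fits of 1 cell type, and leaving out each library. These were run for the collagens, not for the list genes. Leaving out libraries for the ratios of shares was added after seeing the data. Replicates with the same number did not deviate together (correlations -0.040 to 0.044). The authors' deposited group means were not used. For 5 groups they equal the mean of the 3 libraries in 100% of genes (within 0.01%), but for microglia sEVs in 11.1%. There 100% equal the mean taken with replicate 3 read from the next gene row. Replicate 3 of microglia sEVs had a Spearman correlation with replicate 2 of 0.841 as listed and 0.3435 when read from the next row. The shift is therefore in the deposited mean, not in the library column used here. Col21a1 and Ctage5 were not analysed here. One list gene that the naming rule selects is not reported here.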

Additional observations from a re-analysis of the deposited data

Results flagged for a closer look

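The difference between sEVs and cells was not the same in astrocytes, microglia and neurons for 10 collagens, by limma's F test of the interaction with Benjamini-Hochberg adjustment over all genes. The adjusted p was 2.89e-06 for Col6a6, 6.72e-05 for Col24a1, 0.000251 for Col22a1, 0.000952 for Col19a1, 0.00313 for Col20a1, 0.00571 for Col9a1, 0.0119 for Col9a2, 0.0137 for Col27a1, 0.0196 for Col8a1 and 0.0203 for Col3a1. These are 24.4% of the 41 collagens tested, beside 21.6% of all genes. Col27a1 had a log2 difference of 5.18 in neurons, -2.85 in astrocytes and -3.67 in microglia. Col22a1 had 0.39 in neurons and was listed at 0 in the sEVs of the other two types. Col6a6, Col24a1 and Col19a1 were listed at 0 in all 6 astrocyte libraries and in all 3 microglia sEV libraries. Microglia cells had 0, 14.7 and 26.9 of Col19a1, 0, 4.69 and 0 of Col24a1 and 0 of Col6a6 in each library. Col6a6 and Col24a1 passed the filter only through neuron cells, where they are high, so a difference between types was built into their choice. Col19a1 too would not pass the filter without neuron cells. With library weights 6 collagens passed this test. The causes were not tested.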

How the results depend on the processing

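Of 153 alternatives to the counts of called collagens, leaving no library out, 136 stayed within 1.5 times. Collagens lower in astrocyte than in microglia cells numbered 2 with a pseudocount of 10, 2 with no filter and 9 with quantile normalization. A filter of 50 gave 0 higher and 2 lower in astrocyte against neuron sEVs and 7 lower in microglia against neuron sEVs. Quantile normalization gave 3 higher in microglia sEVs than in microglia cells, 8 higher in astrocyte than in neuron cells, and 6 higher and 15 lower in microglia against neuron cells. Among sEVs it gave 0 higher and 2 lower in astrocytes against microglia, 2 lower in astrocytes against neurons, and 3 higher and 2 lower in microglia against neurons. Library weights gave 10 lower in microglia sEVs than in microglia cells, and 6 in the F test. Collagens took 58.6 ppm of neuron sEVs when mitochondrially encoded genes and Ftl1 were left out of the total.

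All reversals came with quantile normalization: the mean over types of Col6a6 (log2 0.43), Col11a2 in microglia against neuron cells (0.057), and in microglia against neuron sEVs Col20a1 (1.55), Col4a1 (0.026), Col5a3 (1.26), Col6a4 (0.035), Col6a5 (0.74) and Col8a2 (0.88). Of 1312 single-gene alternatives with no library left out 1196 kept direction and call, 108 lost the call and 8 reversed. With 1 library left out 2331 of 2490 kept both, 159 lost the call and 0 reversed. The causes were not tested.

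With 1 library left out, the collagens lower in sEVs were 20 to 27 in astrocytes, 11 to 20 in microglia, 14 to 23 in neurons and 32 to 36 for the mean of the types, and those higher in neurons 0 to 1. The F test called 7 to 14. Between cells, astrocytes against microglia gave 13 to 15 higher and 1 to 7 lower, astrocytes against neurons 3 to 6 higher and 6 to 13 lower, and microglia against neurons 2 to 6 higher and 15 to 26 lower. Between sEVs, astrocytes against microglia gave 3 to 5 higher, astrocytes against neurons 0 to 1 higher and 0 to 10 lower, and microglia against neurons 8 to 16 lower. Part of the lower ends among sEVs is genes no longer tested, since 6 collagens reached 10 in 1 sEV group alone.

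Same-numbered replicates did not deviate together. With a replicate block 25 collagens were lower in sEVs of astrocytes, 15 of microglia and 18 of neurons, 35 for the mean, 1 was higher in neurons and 7 passed the F test. With equal totals, the median of all genes moved to -0.774 in astrocytes, -0.516 in microglia and -0.769 in neurons for sEVs against cells.

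Limits: depth is unknown and many sEV values are 0, so folds of low genes rest on the pseudocount and a 0 does not show absence.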
